A study of Mus musculus with 12 samples.

Results

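The genes for glucose uptake and glycolysis were followed across 12 RNA-seq libraries of mouse cells at 72 h of differentiation. The set holds 10 genes of the 24736 in the deposited table, chosen by name: the glucose transporters Slc2a1 and Slc2a3, the hexokinases Hk1 and Hk2, the phosphofructokinases Pfkl and Pfkp, pyruvate kinase Pkm, lactate dehydrogenase Ldha, pyruvate dehydrogenase kinase Pdk1 and the lactate exporter Slc16a3. They were named by function, with earlier results of these data known. All 10 passed the filter on low counts that 14196 genes passed, and their expected counts ran from 255 to 67968 per library.

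Glucose enters the cell through facilitative transporters, is trapped as glucose 6-phosphate by hexokinase, is committed to glycolysis by phosphofructokinase and leaves the pathway as pyruvate after pyruvate kinase. Pyruvate then either enters the mitochondrion through pyruvate dehydrogenase, which the PDK kinases switch off, or is reduced to lactate and exported. Pluripotent cells are known for a high glycolytic flux, and the transition from naive to primed pluripotency and then to mesoderm is known for changes in it. Hypoxia-inducible factor (HIF) and MYC are textbook regulators of many of these genes.

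The libraries formed 4 groups of 3. EpiLC were epiblast-like cells of the HM1 TetON mouse ES cell line, wild type for Sox2, grown in 10 ng/ml FGF and 5 µM LGK974, an inhibitor of Wnt secretion. CEpiLC were cells of that wild-type line given the Wnt agonist CHIR99021 from day 2 to day 3, which makes caudal epiblast-like cells. SOX2-OFF and SOX2-ON were cells of the SOX2 TetON line, in which both endogenous copies of Sox2 were ablated and a doxycycline-inducible Sox2 cDNA was placed in the Hprt locus. Both received FGF, LGK974 and CHIR99021. SOX2-ON cells kept doxycycline at 1 µg/ml and SOX2-OFF cells had it withdrawn. The SOX2 TetON line came from picked clones grown on inactivated fibroblast feeders, and no culture of it without CHIR99021 was analysed here, so that line and SOX2 dose cannot be told apart in its comparisons with wild-type cells. In SOX2-ON against SOX2-OFF the line was shared, and doxycycline differed together with SOX2. The study describes its RNA-seq replicates as biological, though the labels do not say what separates them.

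Library totals ran from 10408252 to 27337740 expected counts. Sox2 levels followed the labels: 119 to 171 TPM (transcript abundance scaled to gene length and to a fixed total) in EpiLC, 7.78 to 13.7 in CEpiLC, 12.3 to 21.2 in SOX2-OFF and 173 to 215 in SOX2-ON. The summed level of 6 caudal epiblast and primitive streak markers was 1.45 to 2.44 TPM in EpiLC, 1374 to 1564 in CEpiLC, 965 to 979 in SOX2-OFF and 237 to 284 in SOX2-ON. Most of the SOX2-OFF sum was the streak gene T, at 792 to 830 TPM. Against CEpiLC, 4 of the 6 were called lower in SOX2-OFF and 0 higher, where 24.9% of all tested genes were called lower. Cdx2 was at 169 to 314 TPM in CEpiLC and 29.2 to 35.9 TPM in SOX2-OFF. For 6 early streak, anterior mesoderm and endoderm markers the sum was 3.1 to 3.9 TPM in EpiLC, 30.6 to 117 in CEpiLC, 220 to 332 in SOX2-OFF and 45.9 to 107 in SOX2-ON. The summed level of 8 naive pluripotency markers was 30.7 to 36.1 TPM in EpiLC, 22.1 to 52.3 in CEpiLC, 81.8 to 135 in SOX2-OFF and 321 to 414 in SOX2-ON, and that of 9 visceral endoderm markers was 163 to 276 in wild-type libraries, 700 to 858 in SOX2-OFF and 374 to 858 in SOX2-ON, with Afp and Apoa1 under 1 TPM throughout. The 8 fibroblast markers summed to 19.6 to 84.9 TPM. In both groups of the SOX2 TetON line, whole chromosomes stood apart from CEpiLC: the median gene of chromosome 6 was higher by 0.57 on the log2 scale, that of chromosome 8 higher by 0.60 and that of chromosome 11 lower (-0.53), while the other chromosomes lay between -0.02 and 0.06. Slc2a3 and Hk2 are on chromosome 6 and Slc16a3 is on chromosome 11, so their values are given with and without that shift.

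In the GRCm38 (mm10) annotation of RefSeq the transporters lie at chr4:119108745-119137330 (Slc2a1, Entrez 20525) and chr6:122727809-122802363 (Slc2a3, 20527). Hk1 (15275) spans chr10:62268855-62379920 and Hk2 (15277) spans chr6:82725025-82774454. Pfkl (18641) lies at chr10:77986947-78009807 and Pfkp (56421) at chr13:6579874-6649060. Pkm (18746) is at chr9:59656576-59679372, Ldha (16828) at chr7:46842274-46855627, Pdk1 (228026) at chr2:71873215-71903858 and Slc16a3 (80879) at chr11:120948484-120959000.

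The promoters of 4 of the genes with large differences in level below are shown, since these genes moved in different patterns. Each is the transcript strand, 5′ to 3′, upstream of a RefSeq start in GRCm38.p6, and capitals mark ACGTG or GCGTG on either strand, the core letters that HIF binds. The Slc2a1 and Slc16a3 stretches stop where a GENCODE exon begins, which leaves out the 34 and 14 bases next to the start and, in each gene, an ACGTG that crosses into or lies in them. The Slc16a3 stretch lies inside the RefSeq gene span, ahead of an inner start.
Slc2a1, chr4:119108495-119108710, plus strand: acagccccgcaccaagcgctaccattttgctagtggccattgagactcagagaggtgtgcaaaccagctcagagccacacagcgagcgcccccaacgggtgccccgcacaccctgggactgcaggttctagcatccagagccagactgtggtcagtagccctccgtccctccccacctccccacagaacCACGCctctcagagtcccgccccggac
Hk2, chr6:82774455-82774704, minus strand: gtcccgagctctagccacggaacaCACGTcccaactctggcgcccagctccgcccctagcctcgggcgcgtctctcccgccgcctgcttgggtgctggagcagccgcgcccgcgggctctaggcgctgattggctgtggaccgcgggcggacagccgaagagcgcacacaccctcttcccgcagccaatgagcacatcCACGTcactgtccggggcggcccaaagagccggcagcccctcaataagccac
Pdk1, chr2:71872974-71873223, plus strand: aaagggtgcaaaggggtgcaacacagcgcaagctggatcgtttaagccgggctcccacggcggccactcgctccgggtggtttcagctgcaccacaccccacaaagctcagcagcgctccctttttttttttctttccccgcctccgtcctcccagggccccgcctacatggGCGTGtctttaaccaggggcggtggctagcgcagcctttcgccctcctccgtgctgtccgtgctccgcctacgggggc
Slc16a3, chr11:120948817-120949052, plus strand: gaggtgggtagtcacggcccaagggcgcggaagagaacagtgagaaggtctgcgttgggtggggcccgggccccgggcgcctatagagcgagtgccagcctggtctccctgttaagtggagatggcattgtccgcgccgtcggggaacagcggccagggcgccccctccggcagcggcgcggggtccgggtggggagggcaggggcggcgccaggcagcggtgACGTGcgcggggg

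RefSeq promoter windows were found for 9 of the 10 genes, 13 windows in all, with Slc2a3 as the gene not matched. Counted over the full 250 bases before each start, 10 of the 13 windows held ACGTG or GCGTG, against 38.8% of 32544 mouse promoter windows of the same length. GENCODE exons covered 250 bases of the second Pdk1 window, 208 and 140 of the Pkm windows and 186 of the second Hk1 window. Slc2a1 held 1 of each, Hk2 held 2 ACGTG, Pdk1 held 1 GCGTG ahead of its first listed start and Slc16a3 held 2 ACGTG. One Ldha window held 3 separate places with ACGTG, of which 2 were CACGTG, the palindromic E-box that MYC binds and that holds ACGTG on both strands. The bases just after the start of that window were found in 0 GENCODE transcripts of Ldha. CTTTGA, the core that TCF and LEF factors bind, was in 1 Pfkp and 1 Ldha window and in 13.9% of all windows, and CATTGT, a SOX-type core, was in the Slc16a3 window and in 10.5% of all windows. These matches describe letters and not bound sites.

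**Figure D1:**
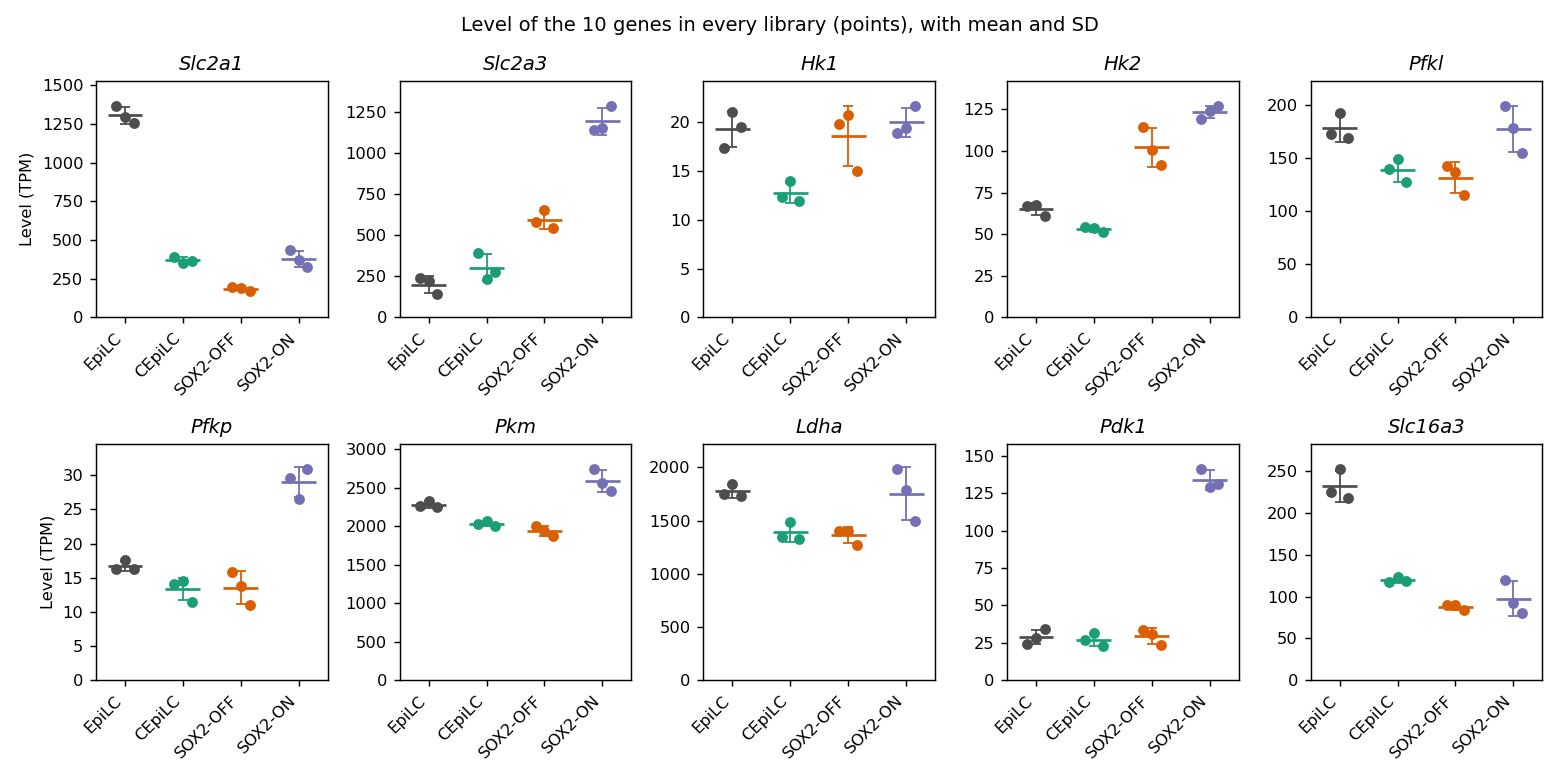
Level in TPM (vertical axes, each from 0) of the 10 genes in each library (points) of the 4 groups, with the group mean (line) and SD (bar), n = 3. Slc2a1 was above 1259 TPM in every EpiLC library and at most 435 TPM in all others, while Pdk1 stood at 129 to 141 TPM in SOX2-ON and at most 34.0 TPM elsewhere.

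Slc2a1 and Slc2a3 encode GLUT1, the widely expressed glucose transporter, and GLUT3, a high-affinity one. Slc2a1 was at 1364, 1295 and 1259 TPM in the EpiLC libraries and at 394, 354 and 363 TPM in the CEpiLC libraries. It was at 195, 189 and 174 TPM in SOX2-OFF and at 435, 371 and 329 TPM in SOX2-ON. EpiLC stood far above the rest, SOX2-OFF below the rest, and CEpiLC and SOX2-ON overlapped. Slc2a1 was 3.51-fold lower in CEpiLC than in EpiLC (log2 fold change -1.81, 95% interval -2.02 to -1.61, edgeR adjusted p = 1.94e-08). It was 1.97-fold lower in SOX2-OFF than in CEpiLC (-0.98, -1.18 to -0.77, edgeR adjusted p = 2.95e-06). It was higher in SOX2-ON than in SOX2-OFF by the same size (0.98, 0.77 to 1.18, edgeR adjusted p = 8.37e-06). Between SOX2-ON and CEpiLC the interval of the difference was -0.20 to 0.20 (edgeR adjusted p = 0.978).

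Slc2a3 took another course. Its levels were 239, 222 and 142 TPM in EpiLC, 394, 236 and 279 TPM in CEpiLC, 579, 656 and 545 TPM in SOX2-OFF and 1142, 1155 and 1286 TPM in SOX2-ON. The EpiLC and CEpiLC ranges overlapped, and both groups of the SOX2 TetON line lay above them without overlapping each other. In CEpiLC against EpiLC the log2 fold change was 0.60 (0.09 to 1.10) and missed the threshold (edgeR adjusted p = 0.0577), although DESeq2 called it (0.58, adjusted p = 0.0327) and edgeR called it without EpiLC replicate 1 (0.75, adjusted p = 0.0406) or CEpiLC replicate 2 (0.76, adjusted p = 0.0278). Slc2a3 exceeded its CEpiLC level in SOX2-OFF (0.98, 0.47 to 1.49, edgeR adjusted p = 0.00538), but with the shift of chromosome 6 removed the difference was 0.41 and no longer passed (adjusted p = 0.177). In SOX2-ON it was 3.83-fold higher than in CEpiLC (1.94, 1.42 to 2.46, edgeR adjusted p = 7.26e-05), and 1.36 remained without the shift (adjusted p = 0.000847). SOX2-ON exceeded SOX2-OFF, where the shift cancels, by 0.96 (0.45 to 1.46, edgeR adjusted p = 0.011).

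The sum of both transporter genes, looked at after their values were seen, was 1401 to 1603 TPM in EpiLC, 591 to 787 TPM in CEpiLC, 718 to 844 TPM in SOX2-OFF and 1525 to 1615 TPM in SOX2-ON. With the shift of chromosome 6 taken off Slc2a3, an alternative chosen after seeing the data, the sum was 540.1 to 629.7 TPM in SOX2-OFF and 1147 to 1203 TPM in SOX2-ON, the latter below every EpiLC library. Slc2a3 gave 10.1% to 14.9% of the sum in EpiLC and 72.4% to 79.6% in SOX2-ON, or 63.9% to 72.6% without the shift. Its share was 40% to 50% in CEpiLC and 74.8% to 77.7% in SOX2-OFF, or 66.7% to 70.2% without the shift. The log2 ratio of Slc2a3 to Slc2a1 averaged -2.74 in EpiLC (SD 0.36), -0.32 in CEpiLC (SD 0.30) and 1.67 in both SOX2 TetON groups. The difference between SOX2-ON and SOX2-OFF in this ratio was -0.0048, since both genes were higher in SOX2-ON by nearly the same factor. The step from CEpiLC to SOX2-ON was 1.99, and 1.42 with the chromosome shift removed. Over the 4 isoform ratios and 6 group pairs, 24 exact two-sided permutation tests were run. An exact permutation test of 3 libraries against 3 cannot go below p = 0.1, which 19 of them reached because the groups did not overlap, and the adjusted value was then 0.126.

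**Figure D2:**
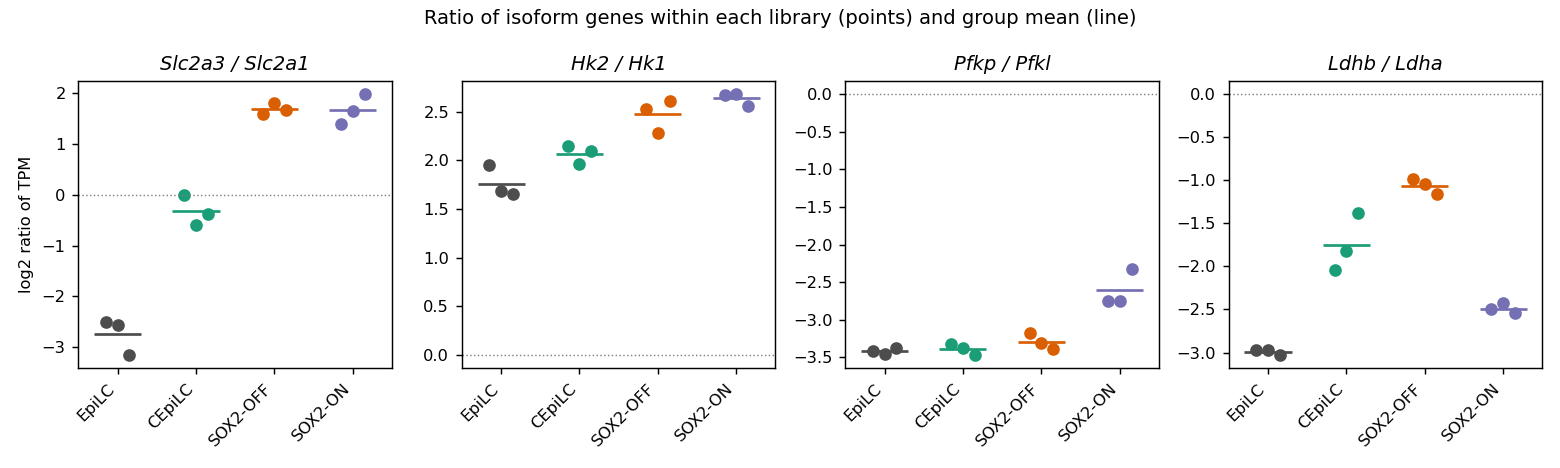
Log2 ratio of TPM between isoform genes (vertical axes) in each library (points) with the group mean (line), for 4 gene pairs and the 4 groups, n = 3. The ratio of Slc2a3 to Slc2a1 was below -2.5 in every EpiLC library and above 1.3 in every library of the SOX2 TetON line, and that of Ldhb to Ldha was highest in SOX2-OFF.

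Hexokinase 1 is the housekeeping form, and hexokinase 2 is an inducible form that binds the mitochondrial surface. Hk1 was low, at 17.3, 21.0 and 19.5 TPM in EpiLC, 12.3, 13.9 and 11.9 TPM in CEpiLC, 19.8, 20.7 and 15 TPM in SOX2-OFF and 18.8, 19.4 and 21.6 TPM in SOX2-ON. CEpiLC lay below all other groups, and the other 3 groups overlapped. Hk1 fell 1.51-fold in CEpiLC against EpiLC (log2 fold change -0.59, -0.82 to -0.36, edgeR adjusted p = 0.000683). Against CEpiLC it was higher in SOX2-OFF (0.56, edgeR adjusted p = 0.000779) and in SOX2-ON (0.61, edgeR adjusted p = 0.000305).

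Hk2 was at 66.9, 67.3 and 61.0 TPM in EpiLC, 54.4, 54.0 and 51.3 TPM in CEpiLC, 114, 101 and 91.4 TPM in SOX2-OFF and 119, 124 and 127 TPM in SOX2-ON. No group overlapped another. It fell by 0.28 in CEpiLC against EpiLC on the log2 scale (edgeR adjusted p = 0.00435). It was 1.93-fold higher in SOX2-OFF than in CEpiLC (0.95, edgeR adjusted p = 1.8e-07) and 2.26-fold higher in SOX2-ON (1.17, edgeR adjusted p = 1.68e-08). Without the shift of chromosome 6 these differences were 0.38 and 0.60, and both still passed (adjusted p = 0.000603 and 9.13e-06). The difference of SOX2-ON from SOX2-OFF was 0.22 (0.08 to 0.37, edgeR adjusted p = 0.0234), and it was lost when any 1 of 4 libraries was left out, SOX2-OFF replicates 2 and 3 and SOX2-ON replicates 2 and 3 (0.16 to 0.23, adjusted p = 0.0522 to 0.108). Hk2 gave 75.8% to 79.5% of the sum of both hexokinases in EpiLC and 85.5% to 86.5% in SOX2-ON, or 80.5% to 81.8% without the shift. The mean log2 ratio of Hk2 to Hk1 was 0.56 higher in SOX2-ON than in CEpiLC and 0.05 higher with the chromosome shift removed.

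Phosphofructokinase is a tetramer of liver (Pfkl), platelet (Pfkp) and muscle (Pfkm) type subunits. Pfkl was at 173, 193 and 169 TPM in EpiLC, 140.0, 149 and 127 TPM in CEpiLC, 143, 137 and 115 TPM in SOX2-OFF and 199, 179 and 155 TPM in SOX2-ON. EpiLC and SOX2-ON overlapped at the higher level, and CEpiLC and SOX2-OFF overlapped at the lower one. The log2 fold change was -0.35 in CEpiLC against EpiLC (edgeR adjusted p = 0.0126) and 0.38 in SOX2-ON against SOX2-OFF (edgeR adjusted p = 0.0122). The first was lost without EpiLC replicate 2 or CEpiLC replicate 3 (adjusted p = 0.0574 and 0.0503), and the second without SOX2-OFF replicate 3 or SOX2-ON replicate 1 (adjusted p = 0.0513 and 0.0527). In SOX2-ON against CEpiLC it was 0.32 (edgeR adjusted p = 0.0155), lost without CEpiLC replicate 3 (0.27, adjusted p = 0.0589) or SOX2-ON replicate 1 (0.21, adjusted p = 0.0754).

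Pfkp was at 16.2, 17.6 and 16.3 TPM in EpiLC and 14.0, 14.5 and 11.5 TPM in CEpiLC. It was at 15.8, 13.8 and 11 TPM in SOX2-OFF and 29.6, 26.6 and 30.9 TPM in SOX2-ON. SOX2-ON stood apart from all other groups. The level was 2.11-fold higher there than in CEpiLC (log2 fold change 1.08, 0.84 to 1.32, edgeR adjusted p = 2.52e-06) and 2.06-fold higher than in SOX2-OFF (1.05, 0.80 to 1.29, edgeR adjusted p = 1.36e-05). The fall in CEpiLC against EpiLC (-0.31, edgeR adjusted p = 0.0403) was lost when any library but CEpiLC replicate 2 was left out (-0.35 to -0.23, adjusted p = 0.0502 to 0.137). Pfkm moved against Pfkp: it was lower in SOX2-ON than in CEpiLC (-0.65) and than in SOX2-OFF (-0.55). The sum of the 3 subunit genes was 212 to 255 TPM in SOX2-ON, and Pfkp gave 11.3% to 14.6% of it, against 6.39% to 7.19% in CEpiLC.

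Pkm, whose M2 splice form is the one known from proliferating cells, was among the most abundant of the set. Its levels were 2259, 2332 and 2256 TPM in EpiLC, 2029, 2064 and 2001 TPM in CEpiLC, 2006, 1934 and 1879 TPM in SOX2-OFF and 2745, 2560.3 and 2456 TPM in SOX2-ON. The table counts the gene as a whole, so the splice forms were not separated here. The groups ordered as SOX2-ON, EpiLC, CEpiLC and SOX2-OFF, with CEpiLC and SOX2-OFF not told apart (log2 fold change -0.05, -0.16 to 0.06, edgeR adjusted p = 0.429). Pkm fell by 0.16 in CEpiLC against EpiLC (edgeR adjusted p = 0.0209), a difference lost without EpiLC replicate 2 (-0.15, adjusted p = 0.0724). It was higher in SOX2-ON than in CEpiLC by 0.31 (edgeR adjusted p = 0.000131) and than in SOX2-OFF by 0.36 (edgeR adjusted p = 0.000121).

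Ldha makes lactate from pyruvate. It was at 1747, 1844 and 1731 TPM in EpiLC, 1346, 1490.4 and 1330.3 TPM in CEpiLC, 1406, 1404 and 1274 TPM in SOX2-OFF and 1983, 1783 and 1494 TPM in SOX2-ON. EpiLC lay above CEpiLC, and the SOX2-ON range ran from just above the top CEpiLC library to above all EpiLC libraries. The log2 fold change was -0.35 in CEpiLC against EpiLC (edgeR adjusted p = 0.00713), 0.30 in SOX2-ON against CEpiLC (edgeR adjusted p = 0.0103) and 0.31 in SOX2-ON against SOX2-OFF (edgeR adjusted p = 0.0175). The last was lost without SOX2-OFF replicate 3 (0.28, adjusted p = 0.0661) or SOX2-ON replicate 1 (0.20, adjusted p = 0.0681), and in a fit of only those 6 libraries (0.32, adjusted p = 0.0526). Ldhb, the subunit that favours lactate oxidation, moved against Ldha: it was higher in CEpiLC than in EpiLC (0.91, edgeR adjusted p = 0.00127) and lower in SOX2-ON than in SOX2-OFF (-1.12, edgeR adjusted p = 0.000526). Ldhb gave 10.9% to 11.4% of the sum of both genes in EpiLC, 19.6% to 27.7% in CEpiLC, 30.9% to 33.5% in SOX2-OFF and 14.7% to 15.7% in SOX2-ON. Without the shift these last were 23.5% to 25.7% and 10.6% to 11.3%. Ldhb is on chromosome 6, and its difference between SOX2-OFF and CEpiLC (0.66, edgeR adjusted p = 0.00648) was 0.09 without the shift (adjusted p = 0.705).

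Pdk1 phosphorylates and inactivates pyruvate dehydrogenase. Its levels were 24.4, 28.5 and 34.0 TPM in EpiLC, 26.8, 31.3 and 22.7 TPM in CEpiLC and 33.7, 30.8 and 23.4 TPM in SOX2-OFF. In SOX2-ON they were 141, 129 and 131 TPM. The 9 libraries outside SOX2-ON overlapped, and the 3 SOX2-ON libraries lay far above all of them. Pdk1 was 4.82-fold higher in SOX2-ON than in CEpiLC (log2 fold change 2.27, 1.95 to 2.59, edgeR adjusted p = 1.95e-07), 4.4-fold higher than in SOX2-OFF (2.14, 1.82 to 2.45, edgeR adjusted p = 1.4e-06) and 4.54-fold higher than in EpiLC (2.18, 1.87 to 2.5, edgeR adjusted p = 1.77e-07). In CEpiLC against EpiLC the interval was -0.40 to 0.22 and in SOX2-OFF against CEpiLC -0.18 to 0.44. The EpiLC range of Pdk1 overlapped those of CEpiLC and SOX2-OFF, with Sox2 at 119 to 171 TPM in EpiLC. EpiLC and SOX2-ON differed in CHIR99021, line and doxycycline together, and the part of the Sox2 level in the Pdk1 values was not tested. All 8 naive markers were called higher in SOX2-ON than in CEpiLC, and 5 of 8 also in SOX2-OFF, where Pdk1 was not called (0.13, edgeR adjusted p = 0.472). Of all tested genes 27.8% and 23.5% were called higher in these comparisons. Nanog and Dppa3 are on chromosome 6 and Klf2 and Zfp42 on chromosome 8, so the marker counts include the shift of the line. The part of the naive markers in the result was not tested. In bulk samples fewer cells of a type and less RNA per cell cannot be told apart.

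Slc16a3 encodes MCT4, a lactate exporter. It was at 226, 253 and 218 TPM in EpiLC and 117, 123 and 119 TPM in CEpiLC. It was at 89.8, 90.3 and 83.6 TPM in SOX2-OFF and 120.4, 92.1 and 80.7 TPM in SOX2-ON. EpiLC stood above all other libraries, and SOX2-ON overlapped both CEpiLC and SOX2-OFF. The fall in CEpiLC against EpiLC was 1.93-fold (log2 fold change -0.95, -1.21 to -0.68, edgeR adjusted p = 6.99e-05). Slc16a3 was lower in SOX2-OFF than in CEpiLC (-0.43, edgeR adjusted p = 0.0127) and in SOX2-ON than in CEpiLC (-0.32, edgeR adjusted p = 0.0401), but with the shift of chromosome 11 removed both turned to 0.11 and 0.21 and neither passed (adjusted p = 0.516 and 0.173). The difference of SOX2-ON was also lost without any 1 of 5 libraries, all 3 of CEpiLC and SOX2-ON replicates 2 and 3 (-0.33 to -0.18, adjusted p = 0.0803 to 0.163).

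**Figure D3:**
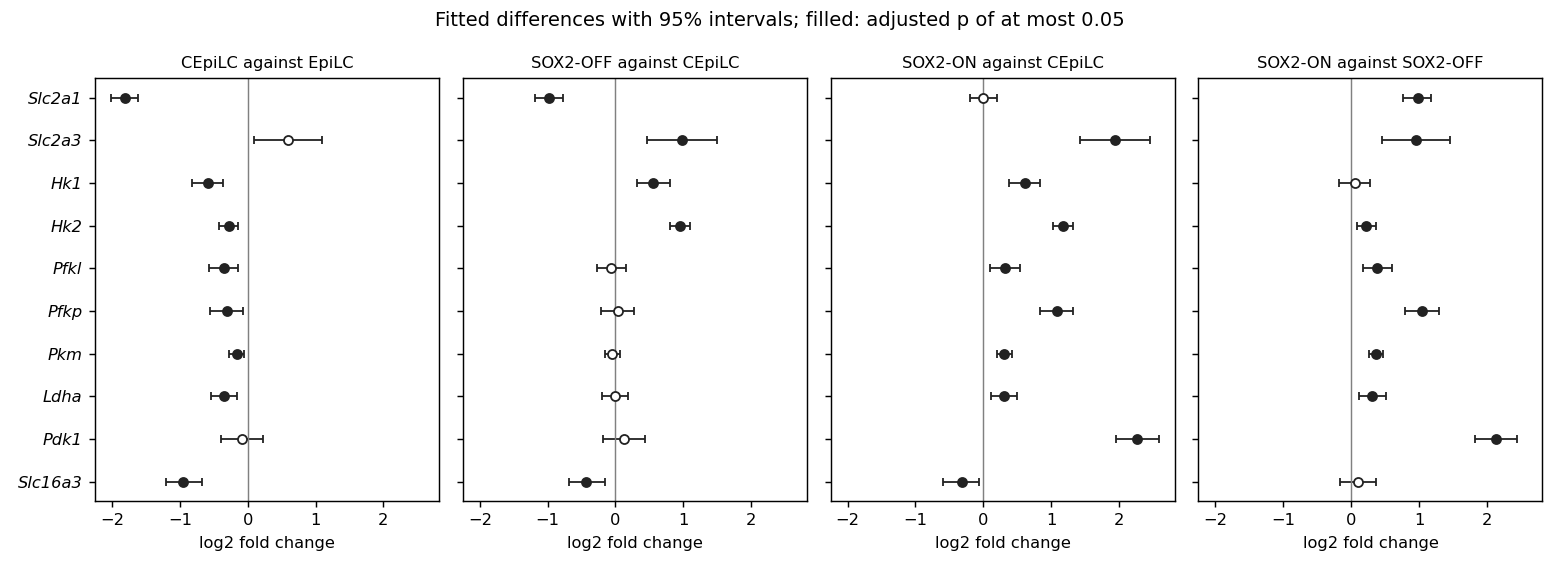
Fitted log2 fold change (horizontal axes) of the 10 genes in 4 comparisons, with 95% intervals. Filled points passed an adjusted p of 0.05. In CEpiLC against EpiLC 8 filled points lie below 0, and in SOX2-ON against SOX2-OFF 8 lie above 0.

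Set side by side, the comparisons gave these counts. With CHIR99021 in wild-type cells, 8 of the 10 genes fell, none rose, and Slc2a3 and Pdk1 did not pass. Across all tested genes 42.1% were called in this comparison, 20% as lower and 22% as higher. The 8 of 10 lower was above that share, for genes chosen with earlier results of these data known. In all 8 the CPM values of the groups did not overlap, as for 52.3% of all genes. The median log2 fold change of the 10 genes was -0.33, against 0.01 over all tested genes. The count of 8 ranged from 5 to 8 as single libraries were left out, and was 5 without EpiLC replicate 2.

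In SOX2-OFF against CEpiLC, Slc2a3, Hk1 and Hk2 were higher, Slc2a1 and Slc16a3 were lower and 5 genes did not pass. Of all tested genes 48.4% were called, 23.5% as higher and 24.9% as lower, and the median of the set was 0.01, against -0.01 over all, so 5 of 10 was close to the background. With the chromosome shift removed 3 of 10 were called, since Slc2a3 and Slc16a3 no longer passed. CPM values did not overlap between the groups for 6 of the 10 genes and for 55.3% of all genes. In SOX2-ON against CEpiLC 8 genes were higher, Slc16a3 was lower and Slc2a1 did not pass. The background was 56.2% called, 27.8% as higher and 28.5% as lower, and the median of the set was 0.46, against -0.01 over all. CPM values did not overlap for 7 of the 10 and for 59.9% of all genes. In SOX2-ON against SOX2-OFF 8 genes were higher and none was lower, with Hk1 and Slc16a3 not called. Here 28.6% of all tested genes were called, 14.7% as higher and 13.9% as lower, CPM values did not overlap for 8 of the 10 and for 43.8% of all, and the median of the set was 0.37, against -0.0075. That count was 5 without SOX2-OFF replicate 3, when Hk2, Pfkl and Ldha did not pass. The comparisons with CEpiLC share the CEpiLC libraries and are not independent of one another. Of the lists of other cell types, 7 of 7 tested visceral endoderm markers were higher in SOX2-OFF and 6 of 7 in SOX2-ON than in CEpiLC. Of 6 early streak, anterior mesoderm and endoderm markers 5 were higher and 0 lower in SOX2-OFF, and 2 were higher and 2 lower in SOX2-ON. The part of these markers in the results was not tested.

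Set against EpiLC, SOX2-ON cells had 5 genes higher, Slc2a3, Hk2, Pfkp, Pkm and Pdk1, and 2 lower, Slc2a1 and Slc16a3, where 59.5% of all genes were called, 30.5% as higher and 29% as lower. CPM values did not overlap for 7 of the 10 and for 66.1% of all genes. SOX2-OFF cells had 2 higher, Slc2a3 and Hk2, and 6 lower, where 61.9% of all genes were called, 31.4% as higher and 30.5% as lower. CPM values did not overlap for 8 of the 10 and for 69.2% of all genes. Pkm in SOX2-ON (0.15) was lost without EpiLC replicate 3 or SOX2-ON replicate 1 and in a fit of only those 6 libraries (adjusted p = 0.0647, 0.0832 and 0.0525). Pfkp in SOX2-OFF (-0.28) was lost when any library but SOX2-OFF replicate 1 was left out (-0.31 to -0.16, adjusted p = 0.0603 to 0.202). With the chromosome shift removed, Hk2 in SOX2-OFF against EpiLC was 0.10 and did not pass (adjusted p = 0.241). The summed level of the 10 genes was 5906 to 6273 TPM in EpiLC, 4316 to 4531 in CEpiLC, 4210 to 4603 in SOX2-OFF and 6112 to 6934 in SOX2-ON. Pkm and Ldha made up most of each sum.

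**Figure D4:**
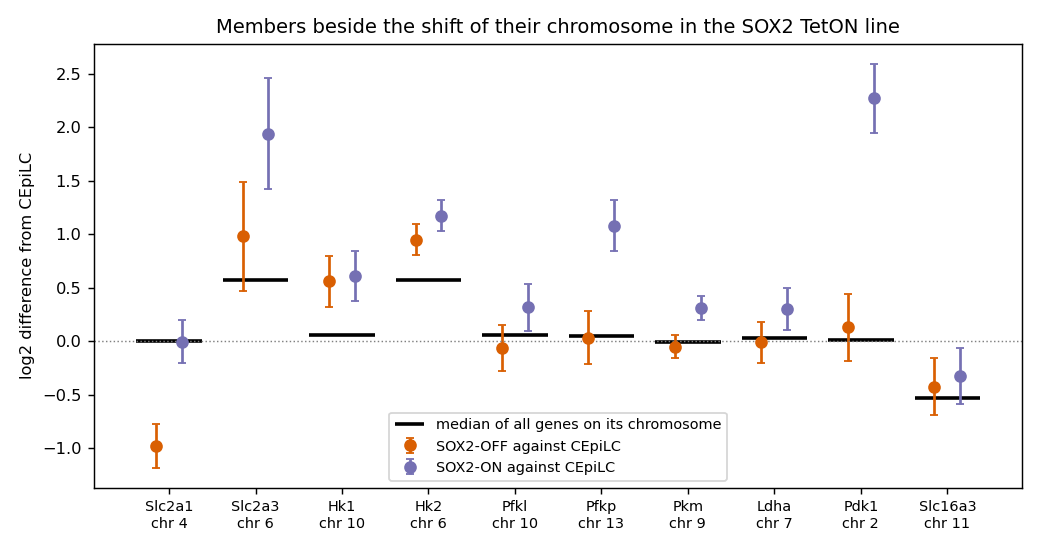
Log2 difference from CEpiLC (vertical axis) of each gene in SOX2-OFF and SOX2-ON with 95% intervals, beside the median difference of all genes on its chromosome in the SOX2 TetON line (black bars, 0.57 for chromosome 6 and -0.53 for chromosome 11). Slc16a3 lay near its chromosome's bar in both groups. Slc2a3 and Hk2 lay above theirs, though the interval of Slc2a3 in SOX2-OFF (0.47 to 1.49) held the bar. Slc2a1 in SOX2-OFF and Pdk1 in SOX2-ON lay far from bars that were near 0.

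Over the 12 libraries the genes varied in a few shared shapes. These correlations are descriptions of log2 CPM (counts scaled to library size), and the points share libraries and groups. Slc2a1 and Slc16a3 ran together (Pearson r = 0.94), as did Pfkl and Ldha (0.97), Pdk1 and Pfkp (0.94), Pkm and Pfkp (0.89) and Slc2a3 and Hk2 (0.87), the last pair sharing chromosome 6. Slc2a1 and Slc2a3 ran against each other (-0.62). Among the 8116 genes that averaged 4 log2 CPM or more, the gene most like Slc2a1 was Sall2 (0.99) and that most like Pdk1 was Zdhhc13 (0.979), followed by Eml4 (0.972) and Tdh (0.971), a threonine dehydrogenase known from mouse ES cells. The closest to Hk2 were Urb2 and Cmtm4 on chromosome 8 and Trnt1 on chromosome 6 (0.994, 0.991 and 0.989), both of which are shifted chromosomes. For Slc16a3 they were Raly, Flot2 and Mplkip (0.977, 0.971 and 0.970), with Flot2 on chromosome 11. The gene most like Ldha was Pfkl, followed by the glycolytic enzyme Pgam1 (0.933). The gene most like Slc2a3 was Slc10a7 (0.979), most like Hk1 Rcan3 (0.980), most like Pfkp Pcyox1l (0.973) and most like Pkm Rfc5 (0.967).

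The rest of the pathway was read from lists named by function. Of 22 enzymes from hexokinase to pyruvate kinase, members included, 19 were tested. In CEpiLC against EpiLC 10 were lower and 1 was higher, where 20% and 22% of all tested genes were. The one that rose was Eno1, enolase 1, from 1703 to 1752 TPM in EpiLC to 2411 to 2807 TPM in CEpiLC (log2 fold change 0.61, edgeR adjusted p = 1.49e-05), although its counts were shared in part with related sequence, as their decimals show. Triose phosphate isomerase Tpi1 fell (-0.46), as did Gapdh (-0.15) and Pgam1 (-0.28). In SOX2-ON against SOX2-OFF 8 of the 19 were higher, among them Pgk1 (0.41), Pgam1 (0.32) and Eno1 (0.33), and 3 were lower, Pfkm, the muscle enolase Eno3 (-1.09) and Hkdc1. Of all tested genes 14.7% were called higher and 13.9% lower in that comparison. In SOX2-ON against CEpiLC 12 were higher and 4 lower, where 27.8% of all tested genes were called higher and 28.5% lower. Of the 22 listed enzymes 8 are on chromosomes 6, 8 or 11, so these counts include the shift of the line. Tpi1 and Gapdh (0.86 and 0.48) are on chromosome 6, whose median gene was higher by 0.57. Aldoc, Pgam2 and Eno3, on chromosome 11, were lower and stayed so without the shift (-0.38, -2.36 and -0.82). Hkdc1, a hexokinase-like gene, had 0 to 3 counts in every wild-type library, 214 to 428 in SOX2-OFF and 80 to 228 in SOX2-ON. Its levels were 7.80, 13.1 and 10.7 TPM in SOX2-OFF and 2.5, 2.62 and 7.60 TPM in SOX2-ON. The difference between these groups was lost without SOX2-OFF replicate 2, SOX2-ON replicate 1 or SOX2-ON replicate 2 (adjusted p = 0.0693, 0.062 and 0.0665), and in a fit of only those 6 libraries (adjusted p = 0.0978). The visceral endoderm gene Cubn was likewise highest among the SOX2-ON libraries in replicate 3, at 24, 34.2 and 77.4 TPM, and the part of visceral endoderm genes in the Hkdc1 values was not tested.

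**Figure D5:**
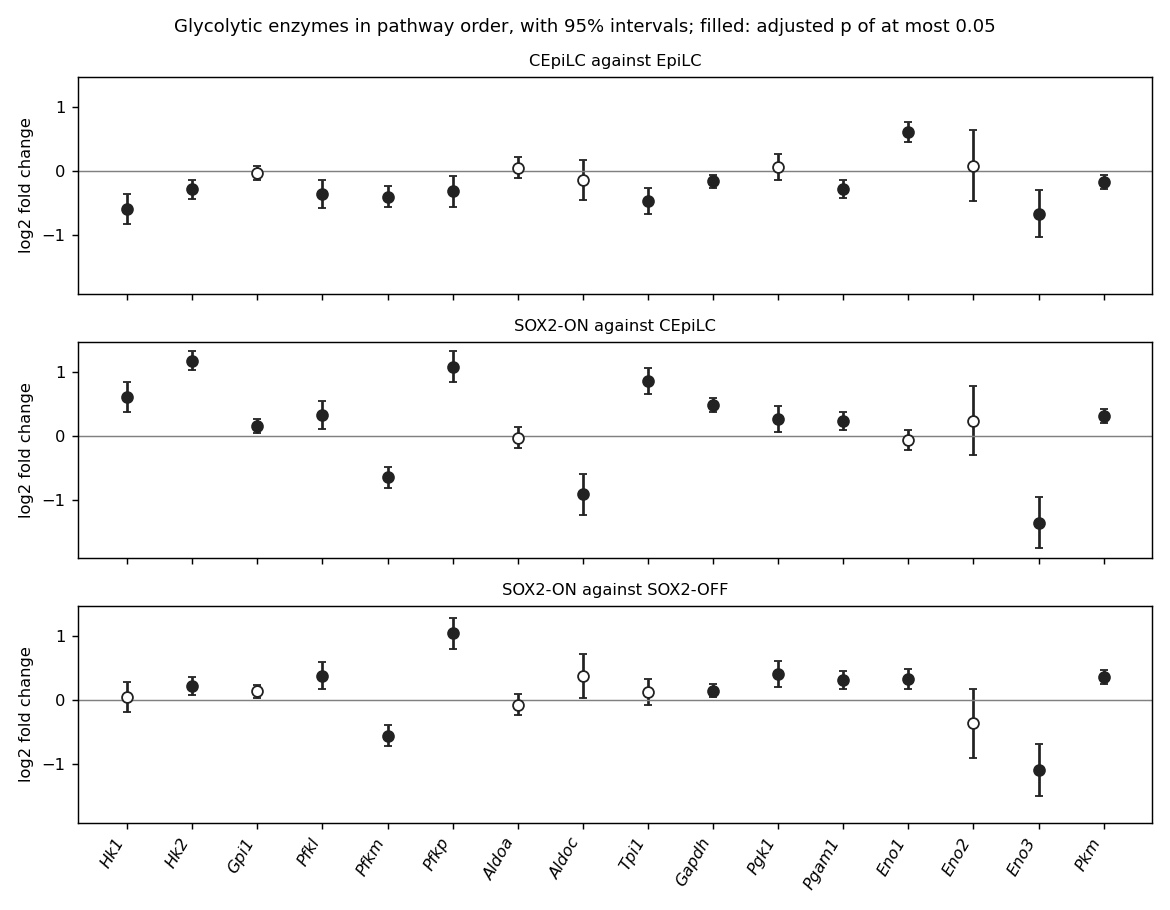
Fitted log2 fold change (vertical axes) of 16 glycolytic enzyme genes in pathway order in 3 comparisons, with 95% intervals. Filled points passed an adjusted p of 0.05, and genes under 5 TPM in every library or with at most 3 counts in every library of a group are left out. Eno1 is the filled point above 0 in CEpiLC against EpiLC, and Pfkp is the highest point in SOX2-ON against SOX2-OFF.

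Of 5 genes for enzymes that set fructose 2,6-bisphosphate, the activator of phosphofructokinase, 3 rose in CEpiLC against EpiLC and none fell. Over all tested genes 22% were called higher and 20% lower in that comparison. Pfkfb3, whose product makes that activator, was at 6.81 to 7.51 TPM in EpiLC, 9.03 to 11.5 in CEpiLC, 16.0 to 19.4 in SOX2-OFF and 9.15 to 10.9 in SOX2-ON, so it was lower in SOX2-ON than in SOX2-OFF (-0.88, edgeR adjusted p = 4.4e-05). Tigar, whose product removes the activator, was higher in SOX2-ON than in CEpiLC (1.47), with 0.90 left without the shift of chromosome 6. Of 9 tested hexose transporters, the members Slc2a1 and Slc2a3 included, 2 fell and none rose in CEpiLC against EpiLC. These were Slc2a1 and Slc2a8 (-0.46), below the 42.1% of all genes called. The Slc2a8 call was lost without EpiLC replicate 2 or 3 or CEpiLC replicate 1 or 2 (adjusted p = 0.0828 to 0.0943). In SOX2-ON against SOX2-OFF 4 rose, the members Slc2a1 and Slc2a3 among them, and none fell, where 14.7% of all genes were called higher and 13.9% lower. Another was Slc2a12 (1.93, edgeR adjusted p = 4.21e-05), at 0.55 to 0.96 TPM in SOX2-OFF and 2.73 to 3.14 TPM in SOX2-ON.

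Of 8 tested lactate dehydrogenase and monocarboxylate transporter genes, 5 fell and 2 rose in CEpiLC against EpiLC, where 20% and 22% of all tested genes did. The members Ldha and Slc16a3 are in this list and among those that fell. Emb, embigin, a chaperone of these transporters, fell from 352 to 432 TPM in EpiLC to 96.5 to 109.6 TPM in CEpiLC (-1.95, edgeR adjusted p = 6.89e-10) and stayed at 111 to 124 TPM in the SOX2 TetON line. The other chaperone, Bsg, rose (0.31). Of 13 genes for the entry of pyruvate into mitochondria, the member Pdk1 included, 3 were higher and 3 lower in CEpiLC against EpiLC, close to the 42.1% of all genes called. In SOX2-ON against CEpiLC 7 were higher and 4 lower, where 56.2% of all genes were called. Of the 13 genes 3 are on chromosomes 6, 8 or 11, so these counts include the shift of the line. Pdha1, the catalytic subunit that Pdk1 phosphorylates, was at 149 to 150.5 TPM in EpiLC, 222 to 267 in CEpiLC, 282 to 292 in SOX2-OFF and 519.9 to 595 in SOX2-ON. It was higher in SOX2-ON than in SOX2-OFF (0.89, edgeR adjusted p = 6.91e-07), so the kinase gene and its substrate gene were both highest there. The pyruvate carrier gene Mpc1 rose in CEpiLC (1.14, edgeR adjusted p = 0.00107).

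Of 19 tested genes for HIF and its known targets outside glycolysis, 2 rose and 2 fell in CEpiLC against EpiLC, which was below the 42.1% called over all genes. In SOX2-ON against CEpiLC 12 rose and 2 fell, with a median of 0.51, where 56.2% of all genes were called, 27.8% as higher. Of the 20 listed genes 5 are on chromosomes 6, 8 or 11, so this count and median include the shift of the line. In SOX2-ON against SOX2-OFF 6 rose and 6 fell, with a median of 0.13, where 14.7% of all genes were called higher and 13.9% lower. Adm, adrenomedullin, was at 0.60 to 1.41 TPM in SOX2-OFF and 14.9 to 32.0 TPM in SOX2-ON (4.47, edgeR adjusted p = 7.18e-06). Kdm3a, a histone demethylase on chromosome 6, was higher in SOX2-ON than in SOX2-OFF (0.71, edgeR adjusted p = 4.27e-06), and Ankrd37 too (0.99, edgeR adjusted p = 0.0266). Hif1a itself was at 118 to 132 TPM in wild-type libraries and 126 to 152 TPM in the SOX2 TetON line, and was lower in SOX2-ON than in SOX2-OFF (-0.24). Ndufa4l2, at 3.7 to 9.21 TPM in SOX2-OFF and 0.53 to 0.72 TPM in SOX2-ON, was lower there (-3.39, edgeR adjusted p = 0.0004), as were Ddit4 (-0.53), Egln3 (-1.18) and Epas1 (-1.20). The Egln3 call was lost without SOX2-OFF replicate 3, SOX2-ON replicate 1 or SOX2-ON replicate 2 (adjusted p = 0.0677, 0.0706 and 0.0813). Epas1 was at 0.80 to 1.91 TPM in wild-type libraries and up to 18.6 TPM in SOX2-OFF, in the same libraries in which the visceral endoderm markers were high, and their part in it was not tested. The Epas1 difference between SOX2-ON and SOX2-OFF was lost in a fit of those 6 libraries (adjusted p = 0.114) and when any of them but SOX2-ON replicate 3 was left out (adjusted p = 0.0529 to 0.151).

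Among regulators, Mycn fell in CEpiLC against EpiLC (-1.09, edgeR adjusted p = 6.15e-06), from 88.1 to 92.3 TPM to 35.8 to 52.3 TPM. It was at 19.3 to 21.3 TPM in SOX2-OFF and 38.3 to 41.4 TPM in SOX2-ON. Its order over the groups, EpiLC above CEpiLC and SOX2-ON, and SOX2-OFF lowest, was also that of Slc2a1. Mycl had another order, at 10.6 to 13.0 TPM in EpiLC, 20.2 to 28.0 in CEpiLC, 15.8 to 19.7 in SOX2-OFF and 39.1 to 44.2 in SOX2-ON. The part of these genes in the Slc2a1 values was not tested. Of the 8 glucose-sensing and MYC regulators 2 rose and 2 fell in CEpiLC against EpiLC, where 42.1% of all genes were called. Myc did not pass in SOX2-ON against SOX2-OFF (-0.48, with all 3 SOX2-ON libraries below the SOX2-OFF libraries). Txnip, whose product restrains glucose uptake, was at 68.8 to 84.8 TPM in the SOX2 TetON line, 102 to 168 TPM in CEpiLC and 69.8 to 107 TPM in EpiLC, which overlapped both.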

How the data were processed

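RNA of 12 libraries was made with a strand-specific poly(A) kit and read as 76 bp single ends. Per the labels and the study's methods, the authors trimmed reads with cutadapt 1.16, aligned them with STAR 2.5.2a to mm10 and estimated gene values with RSEM 1.3.0 on RefSeq genes. The deposited table holds RSEM expected counts and TPM per gene and library. Expected counts split reads that match several genes, so genes with close copies are uncertain. All members had whole counts. TPM was used for levels.

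Expected counts were rounded and tested with edgeR 4.0.16 (quasi-likelihood, robust, TMM, filterByExpr, R 4.3.3) in one model of all 12 libraries, with Benjamini-Hochberg adjustment over 14196 genes and a threshold of 0.05. The script was tested on simulated data. Alternatives were other scaling, no filter, DESeq2 1.42.0, a replicate block, the 6 libraries compared, single libraries left out, and the median shift of each chromosome (TetON line minus CEpiLC, genes of at least 4 mean log2 CPM) as an offset. Isoform ratios used TPM and exact permutation tests. Members, lists and the rule for named genes were chosen with earlier results of these data known. Named were members, their isoforms, and up to 4 called genes per list and comparison with the largest changes and groups apart. Hif1a, Gapdh, Pgk1, Pgam1 and the transcripts summed by step were named after their values were seen.

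Replicate libraries differed by more than counting noise (chi-square per degree of freedom 7.39 to 41.2). Deviations of libraries with the same number correlated above 0.1 for all 3 numbers in CEpiLC against EpiLC (0.128 to 0.204) and SOX2-ON against CEpiLC (0.234 to 0.423), from the values and not the labels. Promoters came from RefSeq on GRCm38.p6, the mm10 assembly.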

Additional observations from a re-analysis of the deposited data

How the results depend on the processing

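Over 6 comparisons and 12 alternatives each, 652 of 720 results for single members kept direction and side of the threshold, 36 fell under it, 3 passed it (Slc2a3 in CEpiLC against EpiLC) and 29 changed sign. The causes were not tested. With the chromosome shift removed, the members called lower in SOX2-OFF against CEpiLC went from 2 to 1 and those called higher from 3 to 2, those lower in SOX2-ON against CEpiLC from 1 to 0, and those higher in SOX2-OFF against EpiLC from 2 to 1. The 1 lower in SOX2-ON against CEpiLC also went to 0 with no filter and with only the 6 libraries, and DESeq2 called 1 member higher in CEpiLC against EpiLC, where edgeR called 0. As single libraries were left out, members called in CEpiLC against EpiLC ranged from 0 to 1 higher and 5 to 8 lower, those lower in SOX2-ON against CEpiLC from 0 to 1, and those higher in SOX2-ON against SOX2-OFF from 5 to 8. The shift removed gave sign changes for Slc16a3 (0.11 in SOX2-OFF and 0.21 in SOX2-ON against CEpiLC), Pfkp (-0.01, SOX2-OFF against CEpiLC), Shmt1 (0.19 and 0.24), Pgls (-0.10, SOX2-ON against CEpiLC), and in SOX2-ON against EpiLC for Hk1 (-0.04), G6pc3 (0.08) and Ldhb (-0.12). Slc2a1 in SOX2-ON against CEpiLC was 0.0048 with RLE scaling and with DESeq2, and 0.0015 with no filter. Sign changes with single libraries left out were all of values near 0: SOX2-ON against CEpiLC Slc2a1 -0.13 to 0.11; SOX2-OFF against CEpiLC Pfkl -0.11 to 0.02, Pfkp -0.08 to 0.14 and Ldha -0.03 to 0.03; CEpiLC against EpiLC Pdk1 -0.20 to 0.03; SOX2-ON against SOX2-OFF Hk1 -0.07 to 0.14 and Slc16a3 -0.09 to 0.23; SOX2-OFF against EpiLC Hk1 -0.11 to 0.09 and Pdk1 -0.06 to 0.17; and SOX2-ON against EpiLC Hk1 -0.05 to 0.09, Pfkl -0.14 to 0.07 and Ldha -0.16 to 0.08. The isoform ratios moved with the shift removed, an alternative chosen after seeing the data, as for the sums of isoforms: Slc2a3 to Slc2a1 to 1.42 in both SOX2 groups against CEpiLC, and to 3.84 and 3.83 against EpiLC. Hk2 to Hk1 went to -0.11 and 0.05 against CEpiLC and to 0.20 and 0.36 against EpiLC, and Ldhb to Ldha to 0.14 and -1.28 against CEpiLC and 1.38 and -0.04 against EpiLC (SOX2-OFF first).

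With the replicate block, 6471 genes were called in CEpiLC against EpiLC, against 5973 without it, and 8370 against 7983 in SOX2-ON against CEpiLC. All 60 member results kept their call under the block, which changed no count of members. Of the other genes named, Ldhb in SOX2-ON against EpiLC was lost under it (0.45, adjusted p = 0.07).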

Other observations

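Other branches of glucose use were measured. Of 8 pentose phosphate genes 2 rose and none fell in CEpiLC against EpiLC, and 3 rose and 3 fell in SOX2-ON against CEpiLC, where 42.1% and 56.2% of all genes were called. Of these 8 genes 2 are on chromosomes 6, 8 or 11, so the second counts include the shift of the line. Rpia, ribose 5-phosphate isomerase on chromosome 6, was at 7.70 to 10.8 TPM in wild-type libraries, 24.6 to 26.3 TPM in SOX2-OFF and 35.7 to 43.5 TPM in SOX2-ON. Its log2 difference between SOX2-ON and CEpiLC was 2.02 (edgeR adjusted p = 1.23e-08), with 1.45 left once the shift of chromosome 6 was removed. Of 10 glycogen genes 1 rose and 3 fell in CEpiLC against EpiLC, close to those 42.1%. Gbe1, the glycogen branching enzyme, fell there (-0.62, edgeR adjusted p = 0.00049) and was higher in SOX2-ON than in CEpiLC (1.08, edgeR adjusted p = 1.81e-06) and than in SOX2-OFF (0.56, edgeR adjusted p = 0.00125). Of 5 tested gluconeogenesis genes 2 fell in CEpiLC against EpiLC and of 5 serine branch genes 1 rose and 2 fell, against the same 42.1%.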
